A study of Mus musculus with 9 samples.

Results

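The data compare innate lymphoid cells (ILCs) of the skin that carry a CCR10 reporter signal with those that do not, in mice without Rag1. The comparison uses 5 of the 9 arrays of the series, chosen by their titles: 2 arrays of GFP+ cells and 3 of GFP- cells. All 5 came from female B6 mice with Rag1-/- and CCR10+/EGFP genotypes, so that the cells of both fractions carried EGFP at one Ccr10 allele. Cells were sorted as CD45.2+, CD3- and lineage-negative, and then split by GFP. The exclusion panel also held antibodies to Gr-1, B220, CD5, CD11b, a Ter antigen and 7-4. The remaining 4 arrays, 2 of each fraction, came from CCR10+/EGFP mice with intact Rag1 (Rag1-sufficient here) and enter the fit and the last comparison. The labels used here give no age, and do not say whether animals were pooled or whether replicates came from separate animals. The p-values therefore reflect the spread among these arrays alone, and that spread may be technical.

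ILCs are lymphocytes without rearranged antigen receptors that answer tissue cytokines. Group 2 ILCs (ILC2s), guided by Gata3 and Rora, release interleukin-5 and interleukin-13 and are abundant in skin, while group 1 ILCs and NK cells depend on Tbx21 and make interferon-gamma. CCR10 is a chemokine receptor whose ligand CCL27 is made by keratinocytes, and it marks lymphocytes that home to or stay in skin. Rag1 is a subunit of the recombinase that builds T and B cell receptor genes, so that Rag1-/- mice have no mature T or B cells.

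Values are intensities on a linear scale. Levels are listed in replicate order, GFP+ replicates 1 and 2 first and GFP- replicates 1, 2 and 3 second. Differences are GFP+ minus GFP- on the scale of log2(intensity + 1), given ± SE from a limma fit, with p-values adjusted by Benjamini-Hochberg over 17445 probe sets. The part of any difference that comes from fewer cells of a type and the part that comes from less RNA per cell cannot be told apart in sorted bulk samples. Lists are described by counts and by the median difference, and marker lists of other cell types also by their summed intensity, which the brightest genes dominate. All lists were chosen with earlier results of these data known, so these counts are a description and not a test.

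The labelled cell type was carried by its markers on all 5 arrays. Id2, a regulator of ILC development, read 6727 and 7905 in GFP+ and 7295, 7515 and 7639 in GFP- cells. Il7r, the interleukin-7 receptor chain, read 2931 and 3806 against 3448, 2566 and 2842, and Icos, a costimulatory receptor of ILC2s, 6663 and 7394 against 7529, 6561 and 7526. Gata3 read 4017 and 2670 against 3643, 3194 and 2677, and Rora 2547 and 2455 against 2740, 2132 and 1929. The fractions overlapped for each of these genes, so that both were bright in transcripts of ILC2s.

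Transcripts of Ccr10, the gene that carries the EGFP reporter, did not separate the fractions. Ccr10 read 148 and 96.5 in GFP+ and 103, 125 and 109 in GFP- cells, a difference of 0.10 ± 0.18 (limma, adjusted p = 0.872). GFP+ replicate 1 was the highest of the 5 arrays and GFP+ replicate 2 the lowest, and without replicate 1 the difference was -0.21. Rag1 read 28.5 to 29.7 and Rag2 14.0 to 14.1 on the 5 arrays, both under the brightness filter of 41.6, as in the Rag1-sufficient arrays, so neither checks the genotype.

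The 5 arrays did not divide cleanly by fraction. GFP+ replicate 1 held the highest value of the 5 for 29.1% of probe sets and the lowest for 33.3%, and GFP- replicate 3 held the highest for 26.8% and the lowest for 21.4%. The GFP+ replicates differed by more than 2-fold in 314 probe sets, 29 of them higher and 285 lower in replicate 1. Between GFP- replicates such differences numbered 127 (1 and 2), 141 (2 and 3) and 471 (1 and 3). Summed intensity over the tested sets was lowest in GFP+ replicate 1 (6695573) and highest in GFP- replicate 3 (7862856). In the tested sets, both GFP+ arrays held exactly equal values for 451 and all 3 GFP- arrays for 103, which lowers the apparent spread there.

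No probe set passed an adjusted p of 0.05 in the limma fit (0 of 17445, 0%, smallest adjusted p = 0.688). At an unadjusted p under 0.05 there were 1098 sets (6.29%), of which 262 (1.5%) were higher and 836 (4.79%) lower in GFP+ cells. Both GFP+ arrays lay above all 3 GFP- arrays in 920 sets (5.27%) and below them in 1758 (10.1%), or 2678 (15.4%) in either direction. With 2 arrays against 3, an exact permutation test of a single gene cannot go below p = 0.2. The median difference over all sets was -0.01 and the median SE 0.14.

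The excess of lower over higher values moved with one array and with the scaling. Without GFP+ replicate 1, the sets at an unadjusted p under 0.05 were 378 higher and 379 lower. After quantile normalization they were 331 higher and 635 lower, and the sets whose fractions did not overlap were 1371 above and 1589 below. Only 27 sets (0.155%) had fractions that did not overlap and a difference over 1 on the log2 scale, 26 lower and 1 higher in GFP+ cells. Among the 19 genes with a single symbol in that group were the ILC2 receptor Klrg1, the OX40 receptor gene Tnfrsf4, the decoy receptor gene Il1r2, the proteasome genes Psmd2 and Psma6 and several small nucleolar RNAs.

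**Figure D1:**
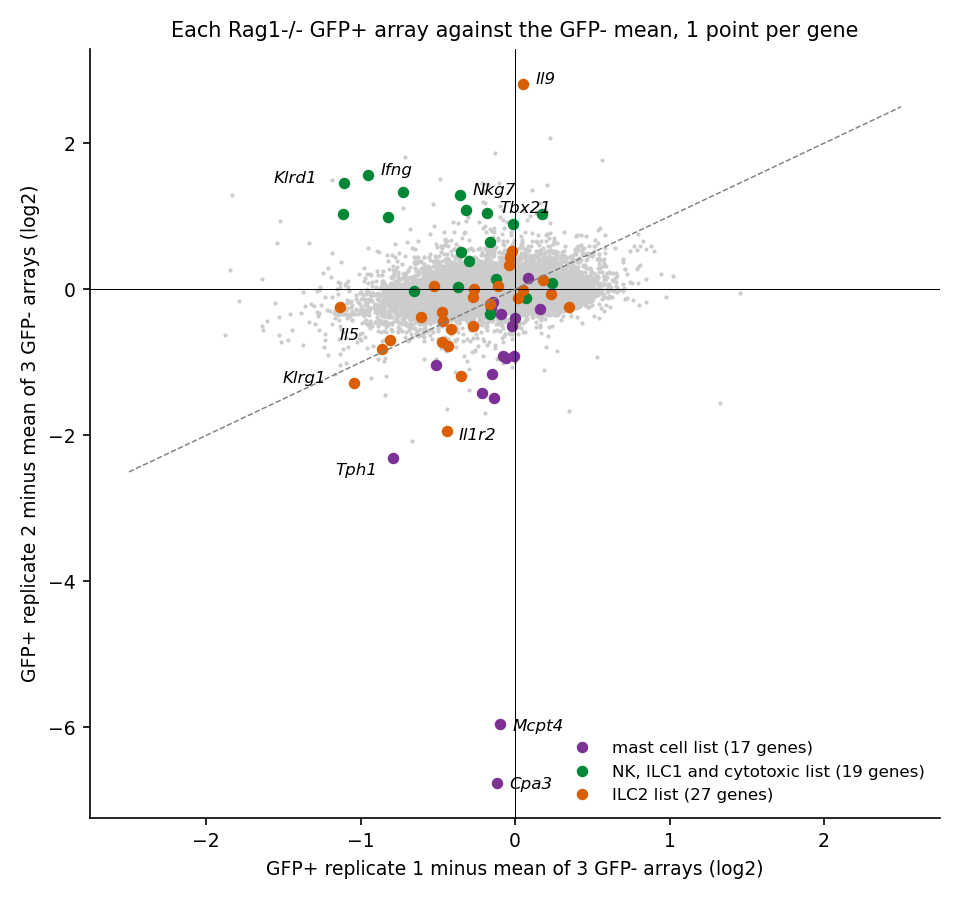
Each point is 1 of 13924 genes, at its log2 level in GFP+ replicate 1 (horizontal axis) and GFP+ replicate 2 (vertical axis), each minus the mean of the 3 GFP- arrays; colours mark 17 mast cell, 19 NK, ILC1 and cytotoxic and 27 ILC2 genes, and the dashed line marks equal values. Cpa3 and Mcpt4 sit near 0 on the horizontal axis and about 6 or more log2 units below 0 on the vertical one, cytotoxic genes such as Ifng lie left of 0 and above it, and Klrg1 and Il5 are below 0 on both.

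A share of the genes listed for ILC2s was low in both GFP+ arrays, in a list chosen with earlier results of these data known. Of 28 ILC2 genes on the list, 27 passed the filter on brightness. In 11 of these both GFP+ arrays lay below all GFP- arrays, in none above, against 10.1% and 5.27% of all sets. At an unadjusted p under 0.05, 12 were lower and 0 higher, against 4.79% and 1.5% of all sets. The median difference was -0.24, beside -0.01 over all sets, and leaving out GFP+ replicate 1 gave -0.24, GFP+ replicate 2 -0.28 and GFP- replicate 3 -0.26, while quantile normalization gave -0.15. No member passed over all sets.

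Klrg1, an inhibitory receptor for cadherins on mature ILC2s, read 33.6 and 28.3 in GFP+ and 58.4, 56.4 and 106 in GFP- cells. The GFP+ arrays were under the lowest GFP- array and under the brightness limit of 41.6, and GFP- replicate 3 was well above its own group. The difference was -1.17 ± 0.25 (limma, adjusted p = 0.688), or -0.88 without GFP- replicate 3. Il5, the cytokine that sustains eosinophils, read 368 and 382 against 604, 580 and 863. Its GFP+ replicates nearly coincided, and the difference was -0.84 ± 0.24 (adjusted p = 0.688).

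Other secreted factors of ILC2s varied in size and in agreement between replicates. Il4, which drives type 2 responses, read 60.6 and 68.1 against 96.4, 73.1 and 85.6 (-0.39 ± 0.13). Csf2, which encodes the growth factor GM-CSF, read 95.1 and 79.7 against 136, 114 and 149 (-0.60 ± 0.19), and Lif, a cytokine of the interleukin-6 family, 40.6 and 37.0 against 57.9, 49.9 and 55.6 (-0.48 ± 0.09). The fractions did not overlap for any of these genes, and each had an adjusted p of 0.688 in limma. Il13, the main effector cytokine of skin ILC2s, read 1224 and 1824 against 1763, 1812 and 1705. Only GFP+ replicate 1 was low for Il13, and without it the difference of -0.24 ± 0.18 became 0.05. Il9, a growth factor for mast cells and ILC2s, read 45.3 and 312 against 37.9, 49.0 and 44.8, so that GFP+ replicate 2 alone was high.

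Some receptors and lipid genes of ILC2s were also lower without overlap. Il1r2, a decoy receptor for interleukin-1, read 968 and 341 against 1355, 1226 and 1376. Both GFP+ arrays were below the GFP- arrays, replicate 2 much further than replicate 1, with a difference of -1.20 ± 0.37. Il9r, the interleukin-9 receptor gene, read 450 and 527 against 559, 764 and 757 (-0.49 ± 0.19). Ramp1, a subunit of the receptor for the neuropeptide CGRP, read 190 and 207 against 221, 392 and 431 (-0.75 ± 0.26). Its relative Ramp3 read 1968 and 2006 against 2494, 2812 and 2861 (-0.45 ± 0.12), with little spread in either fraction. Dgat2, which makes triglycerides, read 662 and 520 against 775, 992 and 929 (-0.61 ± 0.17), and Pparg, a lipid-sensing nuclear receptor active in ILC2s, 123 and 105 against 140, 145 and 161 (-0.38 ± 0.12). Each of these 6 genes had an adjusted p of 0.688 in limma. Other members did not separate: Il2ra read 1349 and 1624 against 1909, 1554 and 1441, and Ccr8, a chemokine receptor of skin lymphocytes, 4381 and 5678 against 4940, 4330 and 4253. The receptor genes Il17rb, at 403 and 589 against 471, 406 and 357, and Cysltr1, at 1005 and 1398 against 1164, 785 and 1195, also overlapped. Over the 27 members 8 differences were positive and 19 negative.

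**Figure D2:**
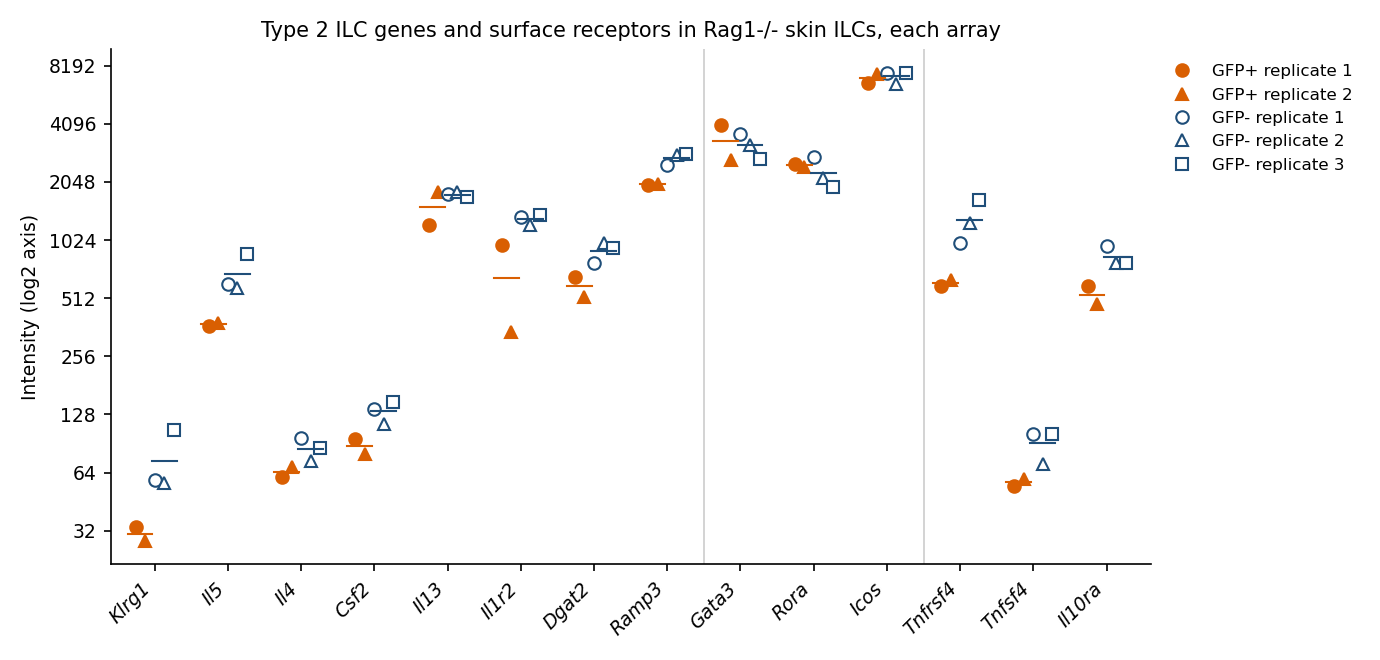
Intensity of each gene (log2 axis) on each array, filled orange for GFP+ and open blue for GFP- with 1 symbol per replicate; lines are group means. For Klrg1, Il5, Il4, Csf2, Il1r2, Dgat2, Ramp3, Tnfrsf4, Tnfsf4 and Il10ra both GFP+ arrays lie below all 3 GFP- arrays, while Il13, Gata3, Rora and Icos overlap.

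Receptors and ligands of the tumour necrosis factor superfamily, which tune survival and costimulation of lymphocytes, were also often low in both GFP+ arrays. Of 18 members tested, 7 had both GFP+ arrays below all GFP- arrays and 0 had them above, and at an unadjusted p under 0.05 there were 5 lower and 0 higher. The shares over all sets were 10.1%, 5.27%, 4.79% and 1.5% in that order. The median was -0.22, and it was -0.06 without GFP+ replicate 1 and -0.10 after quantile normalization. Tnfrsf4, the receptor OX40, read 593 and 632 in GFP+ and 987, 1260 and 1647 in GFP- cells. The GFP+ replicates were close together, the GFP- replicates spread widely, and the difference was -1.05 ± 0.24 (limma, adjusted p = 0.688), a 2.07-fold lower level. Its ligand gene Tnfsf4 read 54.6 and 59.2 against 101, 70.5 and 101 (-0.64 ± 0.19).

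Members with a death domain or an activation role differed among themselves. Tnfrsf1a, the main receptor for tumour necrosis factor, read 321 and 458 in GFP+ and 323, 313 and 275 in GFP- cells, higher in GFP+ replicate 2 alone. Fas, a death receptor, read 97.8 and 138 against 147, 169 and 207 (-0.57 ± 0.19), and Tnfrsf10b, the mouse receptor for TRAIL, 550 and 672 against 836, 799 and 824 (-0.43 ± 0.14). Tnfrsf8, the activation receptor CD30, read 135 and 105 against 141, 165 and 168 (-0.40 ± 0.15). The gap between the fractions was narrow for Fas and Tnfrsf8, where 1 GFP+ array came near the lowest GFP- array. Fas, Tnfrsf10b and Tnfrsf8 each had an adjusted p of 0.688 in limma.

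Outside that family, the lists of cytokine receptors and of checkpoint genes lay close to all sets, with both GFP+ arrays below all GFP- arrays in 2 of 22 and 1 of 18 members, against 10.1%. Il10ra, the ligand-binding chain of the interleukin-10 receptor, read 594 and 475 against 948, 774 and 775 (-0.64 ± 0.17). Il4ra, the shared receptor chain for interleukin-4 and interleukin-13, read 1138 and 1274 against 1520, 1504 and 1500 (-0.32 ± 0.13). The 3 GFP- arrays nearly coincided for Il4ra and both GFP+ arrays were below them. Among the 22 cytokine receptor genes, 3 were lower and 1, the oncostatin M receptor gene Osmr, was higher at an unadjusted p under 0.05, against 4.79% and 1.5% of all sets, with a median of -0.10. Cd101, an inhibitory surface protein, read 338 and 417 against 540, 839 and 715 (-0.87 ± 0.20), the single one of 18 checkpoint and costimulatory genes at an unadjusted p under 0.05, against 6.29% of all sets.

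Ubash3a, which dampens signalling from antigen receptors, was among the most even differences. It read 328 and 341 in GFP+ and 501, 576 and 540 in GFP- cells (-0.68 ± 0.13). Tspan32, a tetraspanin of blood cells, read 68.3 and 75.2 against 107, 140 and 147 (-0.85 ± 0.15). The fractions did not overlap for either gene. For Ubash3a the gap between the fractions exceeded the spread within each, and the difference was -0.66 without GFP+ replicate 1 and -0.71 without GFP+ replicate 2. Itgae, the integrin chain CD103 that holds lymphocytes in epithelium, read 1340 and 1590 against 1645, 1960 and 2110 (-0.38 ± 0.15). It was the single one of 24 migration and residence genes with fractions that did not overlap, against 15.4% of all sets. Adjusted p-values were 0.688 for Ubash3a, Tspan32, Itgae, Il10ra, Il4ra and Cd101 in limma.

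Mast cell transcripts were present on 4 of the 5 arrays and nearly absent from GFP+ replicate 2. Mast cells are granulated tissue cells whose proteases and amine-handling genes are rarely expressed elsewhere, and the exclusion panel names no marker of theirs. Cpa3, mast cell carboxypeptidase, read 2085 and 19.9 in GFP+ and 2686, 2146 and 2009 in GFP- cells. Mcpt4, a connective tissue mast cell chymase, read 878 and 14.1 against 1072, 876 and 878. For both genes GFP+ replicate 1 matched the GFP- arrays in brightness, while GFP+ replicate 2 was as dim as the Rag1-sufficient GFP+ arrays, which read 20.3 and 21.5 for Cpa3 and 23 and 25.4 for Mcpt4.

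The lesser mast cell genes kept the same order. Cma1, another chymase, read 119 and 50.9 against 132, 132 and 151, and the tryptase Tpsb2 94.0 and 65.4 against 128, 142 and 134. Tph1, which starts serotonin synthesis, read 192 and 66.2 against 358, 265 and 388. For Tph1, Tpsb2 and Cma1 replicate 1 was also below every GFP- array, by less than replicate 2. Mrgprb1, a receptor of the mast cell Mrgpr family, read 81.5 and 31.4 against 121, 68.7 and 87.0, the serotonin transporter Slc6a4 112 and 60.6 against 128, 111 and 112, and Cyp11a1, which starts steroid synthesis, 70.5 and 34.4 against 72.4, 70.5 and 93.7.

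Of 24 mast cell genes 17 passed the filter, and 16 of those were lowest in GFP+ replicate 2, against 15.3% of all sets. Their median difference was -0.49, but -0.91 without GFP+ replicate 1 and -0.10 without GFP+ replicate 2. At an unadjusted p under 0.05, 7 were lower and 0 higher, against 4.79% and 1.5% of all sets. Both GFP+ arrays lay below all GFP- arrays in 5 and above them in 0, against 10.1% and 5.27%. The summed level of the list was 5656 and 1883 in GFP+ and 7111, 5663 and 5767 in GFP- arrays. Kit, the stem cell factor receptor that some ILCs also carry, read 1286 and 974 against 1600, 1102 and 1201 and so kept a high level on GFP+ replicate 2.

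**Figure D3:**
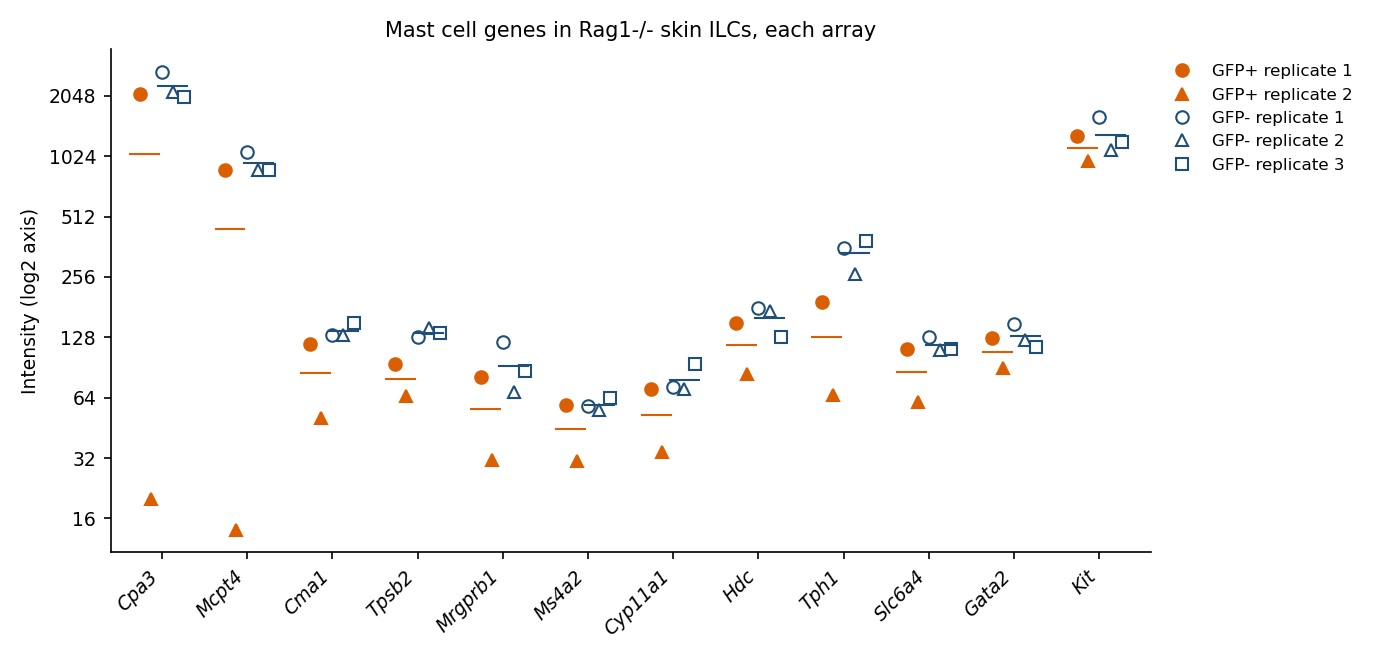
Intensity of 12 mast cell genes (log2 axis) on each Rag1-/- array, symbols as in the plot of type 2 genes, with lines at group means. GFP+ replicate 2 (filled triangle) is the lowest array for every gene drawn, at 19.9 for Cpa3 and 14.1 for Mcpt4, while GFP+ replicate 1 lies at or just below the GFP- arrays.

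Leaving out either GFP+ array leaves a single array in that fraction, whose spread is then assumed to be that of the other groups. Without GFP+ replicate 1, limma called 7 probe sets (0.0401%). They were Cpa3 (-6.76 ± 0.19, adjusted p = 4.01e-05), Mcpt4 (-5.96 ± 0.17, adjusted p = 4.01e-05), Tph1 (-2.31 ± 0.22, adjusted p = 0.0473), Il1r2 (-1.95 ± 0.19, adjusted p = 0.0473), Cma1 (-1.42 ± 0.13, adjusted p = 0.0378), the ciliary gene Cfap126 (0.94 ± 0.08) and the calmodulin-binding gene Pcp4 (0.86 ± 0.08). GFP+ replicate 2 read under the brightness limit of 41.6 for Cpa3 and Mcpt4, so the size of their differences depends on values that may be background. Over all settings the adjusted p ran from 4.01e-05 to 1.0 for Cpa3 and Mcpt4, from 0.0378 to 1.0 for Cma1 and from 0.0473 to 1.0 for Tph1 and Il1r2. Without GFP+ replicate 2, 1 set was called (0.00573%), Apoa4, an apolipoprotein gene that read 218 and 75.9 in GFP+ and 78.9, 77.2 and 80.0 in GFP- cells (1.46 ± 0.08).

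The mast cell genes were not the whole distance between the GFP+ replicates. Genes of type 1 and cytotoxic lymphocytes ran the opposite way, being highest in GFP+ replicate 2 and lowest in replicate 1. Of 19 such genes tested, 13 were highest in GFP+ replicate 2 and 12 lowest in replicate 1, against 14% and 33.3% of all sets. Ifng, the interferon-gamma gene, read 95.4 and 553 in GFP+ and 149, 196 and 218 in GFP- cells. Its regulator Tbx21 read 283 and 661 against 330, 317 and 317. Nkg7, a cytotoxic granule protein, read 1455 and 4575 against 2052, 1725 and 1820. The GFP- arrays fell between the GFP+ replicates for all 3 genes.

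NK receptor genes spread further. Klrd1, the CD94 chain, read 46.9 and 281 against 83.4, 66.2 and 193, and its partner Klrc1 115 and 512 against 211, 193 and 384. Xcl1, a chemokine for cross-presenting dendritic cells, read 457 and 1901 against 907, 573 and 832, and Cd7, a marker of NK and other lymphocytes, 1670 and 4413 against 2110, 1880 and 2268. Eomes, a regulator of NK cells, stayed under the filter at 30.7 to 41.8. The list's median was 0.16 with both arrays, 0.89 without GFP+ replicate 1 and -0.32 without GFP+ replicate 2, so that its sign depended on which array was kept. Its summed level was 7624 and 18576 in GFP+ and 10420, 9029 and 10691 in GFP- arrays.

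T cell and stromal genes went with them in part. Cd3e read 763 and 1981 in GFP+ and 925, 765 and 942 in GFP- cells, in samples sorted as CD3-negative. Trat1, an adaptor of the T cell receptor complex, read 113 and 730 against 246, 197 and 354. Cd3g read 1831 and 3512 against 2638, 2873 and 4859, so that for it GFP- replicate 3 was the highest array. Of 16 T cell genes tested, 4 were highest in GFP+ replicate 2 and 10 lowest in replicate 1, against 14% and 33.3% of all sets. Their summed level was 5776 and 10516 against 7585, 8131 and 10963. The median was 0.06, and 0.15 or -0.37 without GFP+ replicate 1 or 2. Cd5, a marker in the exclusion panel, read 80.7 and 68.8 against 62.6, 59.8 and 60.2 (0.29 ± 0.09, adjusted p = 0.688), without overlap.

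Among stromal genes, Dcn, a matrix proteoglycan of fibroblasts, read 97.1 and 855 against 236, 410 and 440. Mmrn1 and Lyve1, both genes of lymphatic endothelium, read 23.1 and 138 against 24.2, 38.6 and 60.5, and 62.7 and 135 against 50.9, 75.5 and 79.2. Of 16 fibroblast genes 6 were highest in GFP+ replicate 2, and of 13 endothelial and pericyte genes 6, against 14% of all sets. The summed fibroblast level was 5708 and 8088 against 6793, 6464 and 6173, and the summed endothelial level 1259 and 1825 against 1125, 1324 and 1564. These sums weigh bright genes such as Dcn most: the median over fibroblast genes, relative to the GFP- mean, was 0.06 in GFP+ replicate 2 and 0.05 in GFP- replicate 1. Over endothelial genes it was 0.19 in GFP+ replicate 2 and 0.17 in GFP- replicate 3. The part of these other cell types in the differences of the ILC2 list was not tested.

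**Figure D4:**
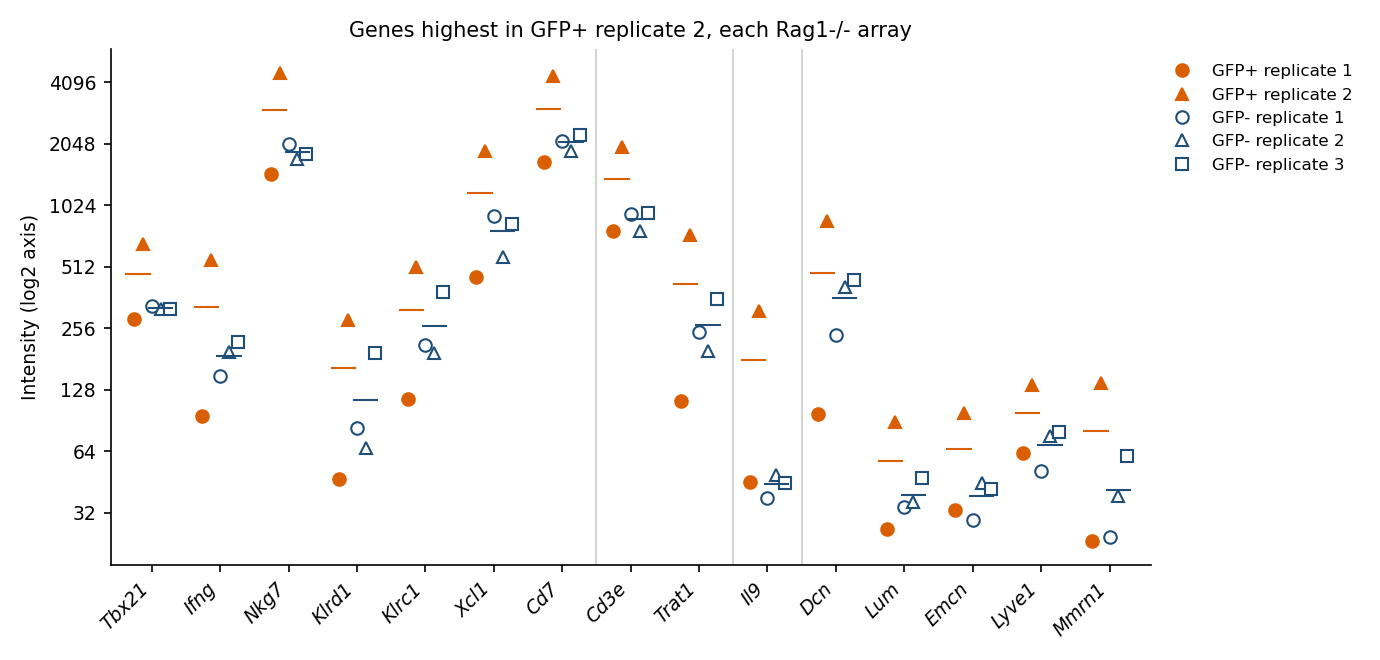
Intensity of genes of cytotoxic lymphocytes, T cells, Il9 and stromal cells (log2 axis) on each Rag1-/- array, symbols as in the plot of type 2 genes. GFP+ replicate 2 (filled triangle) is the highest array for each gene drawn, and GFP+ replicate 1 (filled circle) is the lowest for most, with the GFP- arrays between them.

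Genes of energy metabolism were low in GFP+ replicate 1 and high in GFP- replicate 3. Of 17 glycolysis genes, which convert glucose to lactate, 16 had a negative difference, 10 had both GFP+ arrays below all GFP- arrays and 0 above, and 7 were lower at an unadjusted p under 0.05, against 10.1%, 5.27% and 4.79% of all sets. The median was -0.37. Leaving out GFP+ replicate 1 gave -0.27, leaving out GFP- replicate 3 gave -0.25, and quantile normalization gave -0.30. Ldha, which makes lactate, read 4399 and 4672 in GFP+ and 6058, 5192 and 6515 in GFP- cells (-0.38 ± 0.10). Hk1, which traps glucose in the cell, read 180 and 180 against 203, 289 and 327 (-0.57 ± 0.19), so that both GFP+ arrays agreed and the GFP- arrays spread upward. Aldoc, an aldolase, read 143 and 137 against 174, 296 and 362 (-0.91 ± 0.30), and Tpi1, the triose isomerase, 1273 and 1596 against 1626, 2205 and 2449 (-0.53 ± 0.20). All 4 genes had an adjusted p of 0.688 in limma.

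Genes of the respiratory chain depended more on single arrays. Of 36 oxidative phosphorylation genes 34 had a negative difference and the median was -0.35. However, 31 were highest in GFP- replicate 3 and 25 lowest in GFP+ replicate 1, against 26.8% and 33.3% of all sets. Leaving out either one of these arrays gave a median of -0.14, and 5 genes had both GFP+ arrays below all GFP- arrays (10.1% of all sets). Atp5b, the catalytic subunit of ATP synthase, read 2625 and 3082 against 3473, 3910 and 4029 (-0.42 ± 0.11). Uqcrc1, a core subunit of complex III, read 260 and 333 against 352, 429 and 487 (-0.51 ± 0.18). The tricarboxylic acid cycle genes had a median of -0.23 (19 tested, 3 below without overlap) and the mitochondrial ribosome genes one of -0.24 (26 tested, 3 below and 1 above). These counts were near the shares over all sets, 10.1% below and 5.27% above. Without GFP+ replicate 1 the medians were -0.15 and -0.12, and without GFP- replicate 3 they were -0.16 and -0.07.

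Proteasome genes, whose products degrade tagged proteins, showed the same split. Of 27 tested, 25 had a negative difference and 9 had both GFP+ arrays below all GFP- arrays (10.1% of all sets). Of the same genes, 22 were lowest in GFP+ replicate 1 and 22 highest in GFP- replicate 3, against 33.3% and 26.8% of all sets. Psmd2, a scaffold of the regulatory particle, read 269 and 468 against 551, 668 and 1245 (-1.12 ± 0.35), and Psma6, a core subunit, 176 and 329 against 339, 437 and 895 (-1.08 ± 0.40). In both genes GFP+ replicate 2 came close to GFP- replicate 1, and GFP- replicate 3 was the highest by far. The median of -0.30 was -0.14 without GFP+ replicate 1 and -0.13 without GFP- replicate 3. Lap3, an aminopeptidase that trims peptides, read 76.6 and 132 against 137, 184 and 388 (-1.08 ± 0.39) and had the same profile.

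Chaperone and unfolded protein response genes rested on GFP+ replicate 1. Of 25 tested, 24 had a negative difference, with a median of -0.24. In 23 that array was the lowest (33.3% of all sets), and without it the median was 0.00. Hspa8, the constitutive cytosolic HSP70, read 5806 and 6596 against 6886, 7550 and 7593 (-0.25 ± 0.08). It was one of 3 members with fractions that did not overlap, against 15.4% of all sets. Cholesterol genes were more even. All 18 tested had a negative difference, 7 had both GFP+ arrays below all GFP- arrays (10.1% of all sets), and the median was -0.23, or -0.14 without GFP+ replicate 1 and -0.18 without GFP- replicate 3. Insig1, which holds back the sterol response, read 702 and 774 against 1017, 993 and 1116 (-0.50 ± 0.15), and Sqle, squalene epoxidase, 175 and 180 against 214, 214 and 218 (-0.28 ± 0.11). Both had fractions that were tight and apart, with an adjusted p of 0.688 in limma.

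Of 17 genes that answer low oxygen 2 had both GFP+ arrays below all GFP- arrays, a share near the 10.1% of all sets. Bnip3, which directs removal of mitochondria, read 218 and 290 against 328, 353 and 638 (-0.74 ± 0.28), and P4ha1, which hydroxylates collagen, 310 and 412 against 469, 466 and 711 (-0.59 ± 0.22). GFP- replicate 3 was the highest array for both, and without it the differences were -0.43 and -0.39. The list's median was -0.13.

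**Figure D5:**
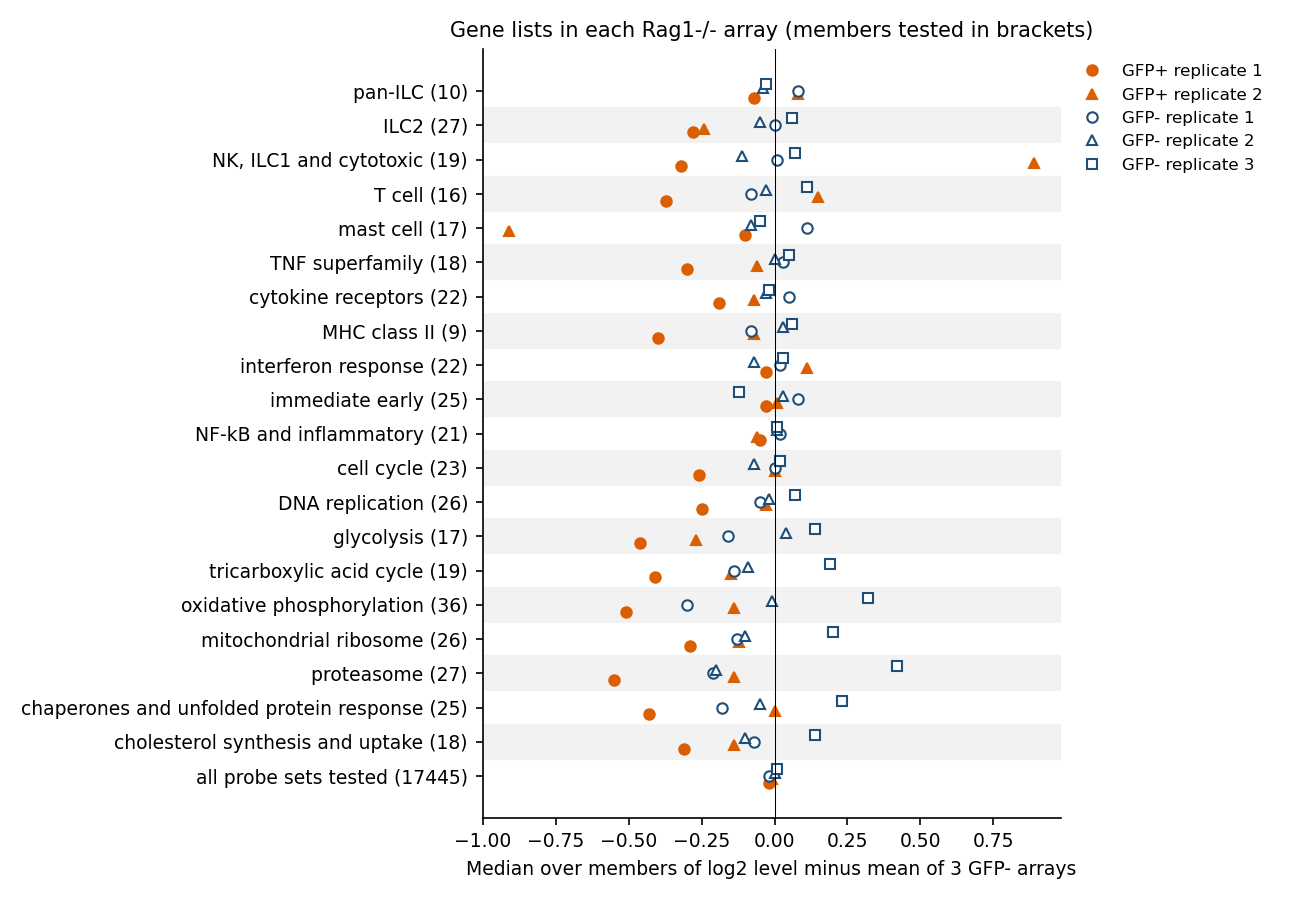
For each gene list (members tested in brackets), the median over members of the log2 level minus the mean of the 3 GFP- arrays, 1 symbol per array. The mast cell and the NK, ILC1 and cytotoxic lists place GFP+ replicate 2 (filled triangle) far to the left and the right. ILC2 and glycolysis place both GFP+ arrays left of all GFP- arrays. By narrower gaps the TNF superfamily, cytokine receptor, NF-kB, tricarboxylic acid cycle and cholesterol lists do so too. The oxidative phosphorylation, proteasome and chaperone lists spread from GFP+ replicate 1 on the left to GFP- replicate 3 on the right.

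Some cell cycle and some DNA replication genes lay apart. Of 23 cell cycle genes 3 had both GFP+ arrays above all GFP- arrays and 1 below, against 5.27% and 10.1% of all sets. None (0) had an unadjusted p under 0.05, against 6.29% of all sets, and the median was -0.07. Nusap1, which organises the spindle, read 121 and 135 in GFP+ and 139, 124 and 135 in GFP- cells, a difference of -0.05 ± 0.11 (limma, adjusted p = 0.878) that was 0.02 without GFP+ replicate 1. Mki67, the proliferation marker, read 175 and 177 against 226, 108 and 104. Of 26 DNA replication genes 7 had both GFP+ arrays below all GFP- arrays and 1 above, against 10.1% and 5.27% of all sets, with a median of -0.13, or -0.03 without GFP+ replicate 1. Mcm3, a subunit of the replicative helicase, read 80.1 and 91.4 against 105, 123 and 120 (-0.43 ± 0.13), and Cdt1, which loads that helicase, 184 and 184 against 211, 338 and 368 (-0.69 ± 0.24).

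Signalling lists had medians between -0.09 and 0.10, and antigen presentation lists had lower ones. Immediate early genes had a median of -0.01 (25 tested), with Jun at 677 and 572 against 759, 787 and 848 (-0.36 ± 0.14). NF-kB and inflammatory genes had a median of -0.09 (21 tested), which was 0.03 after quantile normalization. Of 22 interferon response genes 2 were higher and 1 lower at an unadjusted p under 0.05, against 1.5% and 4.79% of all sets. Both GFP+ arrays lay above all GFP- arrays in 3 and below them in 1, against 5.27% and 10.1%, and the median was 0.10. Dhx58, a cytosolic RNA sensor, read 43.1 and 45.9 against 62.5, 58.3 and 58.7 (-0.42 ± 0.07), while Usp18, which limits interferon signalling, read 53.2 and 48.7 against 41.0, 43.6 and 41.9 (0.27 ± 0.08). These dim genes thus moved in opposite directions without overlap, each with an adjusted p of 0.688 in limma. Cxcl10, a chemokine induced by interferon, read 776 and 1792 against 1085, 370 and 362 (1.16 ± 0.49), where GFP- replicate 1 overlapped the GFP+ arrays. MHC class II genes had a median of -0.16 (9 tested) and class I genes one of -0.21 (10 tested). Both lists were lowest in GFP+ replicate 1 for 7 members, against 33.3% of all sets.

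Among type 17 genes, 3 of 14 tested had both GFP+ arrays below all GFP- arrays, against 10.1% of all sets, with a median of 0.03. Ccr6, a chemokine receptor shared by type 17 lymphocytes, read 996 and 857 against 1316, 1185 and 1129 (-0.39 ± 0.14), and Nrp1, a semaphorin receptor, 57.4 and 42.9 against 76.3, 68.0 and 67.5 (-0.50 ± 0.13). Il17a read 136 and 146 against 132, 131 and 145 and overlapped. In the keratinocyte list (15 tested, median -0.15) Krt17, a keratin of hair follicles, read 90.0 and 107 against 142, 258 and 214 (-1.01 ± 0.29). The keratinocyte markers had a summed level of 2488 and 3074 in GFP+ and 2850, 3827 and 3343 in GFP- arrays.

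The smallest p-values outside these lists belonged to genes with small but even differences. Fam169b, a gene of little-studied function, read 42.9 and 33.2 in GFP+ and 59.8, 70.8 and 64.7 in GFP- cells (-0.77 ± 0.12). Pard6g, a cell polarity adaptor, read 106 and 97.4 against 151, 152 and 179 (-0.65 ± 0.11). Csgalnact1, which starts chondroitin sulfate chains, read 79.0 and 59.9 against 112, 100 and 113 (-0.65 ± 0.13), and Gnl3l, a nucleolar GTPase, 82.9 and 104 against 127, 158 and 151 (-0.64 ± 0.13). All had fractions apart and an adjusted p of 0.688 in limma.

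Genes higher in GFP+ cells had smaller differences. Oxsm, an enzyme of mitochondrial fatty acid synthesis, read 44.2 and 51.3 against 35.7, 36.8 and 33.4 (0.42 ± 0.08). All Rag1-/- GFP- arrays were under the brightness limit of 41.6 for Oxsm. The size of its difference thus depends on values that may be background. Siah1a, a ubiquitin ligase, read 97.0 and 104 against 79.1, 75.6 and 69.2 (0.43 ± 0.09), and Slc38a3, a glutamine transporter, 128 and 144 against 107, 96.1 and 83.1 (0.51 ± 0.13). Brighter examples were Ranbp9, a scaffold protein, at 524 and 568 against 425, 369 and 370 (0.49 ± 0.15), and Map1b, a microtubule-binding protein, at 667 and 717 against 628, 447 and 346 (0.59 ± 0.23). The GFP+ replicates were close for all 5 genes, and the adjusted p was 0.688 for each in limma. Ccl5, a chemokine of cytotoxic lymphocytes, read 241 and 436 against 228, 219 and 194 (0.60 ± 0.33), where GFP+ replicate 1 was only just above the GFP- arrays.

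One microRNA gene stood among the 10 smallest p-values on the higher side. Mir106b lies with Mir93 and Mir25 inside the Mcm7 gene in RefSeq annotation of GRCm38.p6, and the main mature products are shown with bases 2 to 8, the seed that pairs with target messages, in capitals. The first 2 share the seed AAAGUGC, and the third has AUUGCAC:
mmu-miR-106b-5p: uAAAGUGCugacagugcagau
mmu-miR-93-5p: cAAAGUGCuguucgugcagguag
mmu-miR-25-3p: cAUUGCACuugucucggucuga
Mir106b read 77.5 and 79.8 in GFP+ and 59.3, 65.0 and 60.1 in GFP- cells (0.35 ± 0.09, adjusted p = 0.688 in limma), with both fractions tight and apart. Its neighbours overlapped: Mir93 read 99.1 and 72.6 against 74.2, 81.6 and 82.4, and Mir25 185 and 143 against 126, 162 and 135. The host gene Mcm7, a helicase subunit, ran the other way at 181 and 239 against 269, 251 and 304 (-0.39 ± 0.15). The files do not say whether these sets read precursor or mature RNA.

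Small nucleolar and small nuclear RNA genes, which guide the modification and splicing of other RNAs, were lower in GFP+ cells as a group chosen after their values were seen. Of 49 tested, 44 had a negative difference, 18 had both GFP+ arrays below all GFP- arrays (10.1% of all sets) and 0 above, and the median was -0.44. At an unadjusted p under 0.05, 15 were lower (4.79% of all sets) and 0 higher. GFP- replicate 3 was the highest array for 22 of the 49 (26.8% of all sets). Snord118, the U8 RNA needed for ribosomal RNA processing, read 354 and 377 against 586, 1018 and 789 (-1.09 ± 0.26), and Rnu3a, a U3 RNA, 215 and 217 against 298, 551 and 691 (-1.16 ± 0.34). The GFP+ arrays nearly coincided for both. Snora75 read 212 and 79.5 against 283, 429 and 317 (-1.37 ± 0.38), with the GFP+ replicates far apart. Copies of these RNAs resemble one another and many lie within other genes, so their values are uncertain.

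The same gate in Rag1-sufficient mice used other arrays, and the difference between the gates was tested as an interaction (Rag1-/- minus Rag1-sufficient). None of 17445 sets passed (0, 0%, smallest adjusted p = 0.0723 in limma), although the Rag1-sufficient gate alone called 140 (0.803%). Klrg1 differed by -1.11 ± 0.27 in Rag1-sufficient and -1.17 ± 0.25 in Rag1-/- mice (interaction -0.06 ± 0.37, adjusted p = 0.96). Il5 differed by -0.85 ± 0.26 and -0.84 ± 0.24 (interaction 0.01 ± 0.36, adjusted p = 0.989). Dgat2 differed by -0.78 ± 0.18 and -0.61 ± 0.17 (interaction 0.17 ± 0.25, adjusted p = 0.781). With SEs of 0.25 to 0.37, these interactions do not show that the gates act alike. Il10ra passed in Rag1-sufficient mice, where it read 254 and 291 in GFP+ and 590 and 594 in GFP- cells and fell by 1.12 (adjusted p = 0.0328), with an interaction of 0.48 ± 0.25 (adjusted p = 0.419).

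Other genes had differences of opposite sign in the 2 genotypes. Ubash3a read 386 and 380 in Rag1-sufficient GFP+ and 293 and 289 in GFP- cells, a difference of 0.39 ± 0.14, and its interaction was -1.08 ± 0.19 (adjusted p = 0.12). Without Rag1-/- GFP+ replicate 2, which leaves 1 array in that group, the interaction of Ubash3a was -1.11. Dhx58 differed by 0.27 ± 0.08 in Rag1-sufficient mice, with an interaction of -0.69 ± 0.11 (limma, adjusted p = 0.084). In the same fit without Rag1-/- GFP+ replicate 2 the interaction of Dhx58 was -0.74. Pgk1, a glycolytic kinase that read 991 and 1084 in Rag1-/- GFP+ and 1257, 1642 and 1977 in GFP- cells, differed by 0.62 ± 0.22 in Rag1-sufficient and -0.62 ± 0.20 in Rag1-/- mice (interaction -1.24 ± 0.30, adjusted p = 0.229). Psmb5, a catalytic subunit of the proteasome, differed by 0.81 ± 0.30 and -0.74 ± 0.27 (interaction -1.55 ± 0.40, adjusted p = 0.251), and Cdk1, the mitotic kinase, by 1.11 ± 0.28 and -0.49 ± 0.25 (interaction -1.60 ± 0.37, adjusted p = 0.229).

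List medians in the Rag1-sufficient and Rag1-/- gates were -0.16 and -0.24 for ILC2 genes, -0.04 and -0.37 for glycolysis, 0.37 and -0.35 for oxidative phosphorylation, 0.26 and -0.30 for the proteasome and 0.57 and -0.07 for the cell cycle. For mast cell genes they were -1.82 and -0.49. Tpsb2 read 78.4 and 78.0 against 256 and 282 in Rag1-sufficient mice and had an interaction of 1.0 ± 0.22 (limma, adjusted p = 0.209). That interaction was 1.26 without Rag1-/- GFP+ replicate 2, which leaves 1 GFP+ array, the one that carried mast cell transcripts. Over all sets the medians were 0.01 and -0.01. The ILC2 and mast cell lists thus had medians below 0 in both genotypes, while glycolysis in Rag1-sufficient mice was near the value over all sets. The oxidative phosphorylation, proteasome and cell cycle lists had medians of opposite sign. The difference between genotypes was tested for single genes and not for lists.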

How the data were processed

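The deposited values are linear intensities for 24922 probe sets, without detection calls; the submitters' processing notes name MAS5, and its version and role, the scaling between arrays and the genome build are not given in the sources used here. Array medians ran from 74.1 to 77.6. Intensities were taken as log2(value + 1), probe sets in the dimmest 30% by mean were dropped (limit 41.6), and a mean for each of 4 groups was fitted over all 9 arrays with limma 3.58.1 in R 4.3.3 (lmFit, eBayes with trend, residual degrees of freedom 5 and prior 3.56, two-sided, Benjamini-Hochberg). The script was tested on simulated data. The number of arrays limits the precision. Names came from the platform annotation (21425 sets with 1 symbol, 1399 with several, 2098 with none); the set with the highest mean stood for a gene.

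Genes named were those with the 10 smallest p in each direction, the 10 largest differences in each direction without overlap, the 10 largest differences in each direction between the GFP+ replicates, calls without GFP+ replicate 1, up to 4 members per list by p, and a fixed panel, with predicted genes left out. Other members, such as Csf2, Il9r, Ramp1, Pparg, Hk1 and Mcm7's miRNA neighbours, were chosen after their values were seen. All lists and the comparison were chosen with earlier results of these data known. Whether replicate numbers pair the arrays is not known, and the main fit used no pairing. Deviations of the same-numbered Rag1-/- arrays from their group means correlated at 0.0309 and -0.2442. The deviations of 2 GFP+ arrays mirror each other, so these values cannot decide it. The miRNA sequences are from RefSeq (3 of 3 matched).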

Additional observations from a re-analysis of the deposited data

How the results depend on the processing

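The call counts rested on few arrays. Probe sets past an adjusted p of 0.05 numbered 0 with no filter, the 50% filter, a pseudocount of 16, quantile normalization, the 5 Rag1-/- arrays only, no intensity trend, robust eBayes, array weights and the replicate block, and 0 to 7 when single arrays were left out (7 and 1 without GFP+ replicates 1 and 2). Those at an unadjusted p under 0.05 were 453 with the 5 Rag1-/- arrays only, 571 with array weights, 632 with the replicate block, and 603 (without GFP- replicate 3) to 3889 (without GFP+ replicate 2) with single arrays left out, 2248 without GFP- replicate 1. With array weights the GFP+ arrays each had a weight of 0.46. The replicate block, which no label justifies, changed no call. The higher share of unadjusted calls was 23.9%, and 39.6% without a filter, 12.6% with the 50% filter and 34.3% after quantile normalization.

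Sets past the interaction numbered 1 with the 50% filter, 1 after quantile normalization, 31 with array weights and 0 to 500 with single arrays left out. Sets with all GFP+ above were 1845 without a filter, 477 with the 50% filter and 1370 to 5013 with single arrays left out, and those below 2341 to 6134, where fewer arrays overlap less often by construction.

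Of 81 genes with a printed or listed gate difference, 77 kept their sign under every setting. The exceptions reversed without GFP+ replicate 1: with single arrays left out, Il13 ran from -0.52 to 0.05, Mir93 from -0.13 to 0.32, Ccr10 from -0.21 to 0.40 and Nusap1 from -0.13 to 0.02. The interaction of Klrg1 was 0.08 with array weights, 0.24 with the replicate block and -0.21 to 0.24 with single arrays left out, and that of Il5 -0.33 to 0.36. The cause of these changes was not tested.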
